A study of Mus musculus with 6 samples.

Results

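The genes described here are the zinc finger protein genes of the mouse whose symbol is Zfp followed by a number, with at most 1 letter after it, and whose mean level over the 6 morula libraries was 5 TPM or more. TPM expresses the read pairs of a gene per unit of exon length, relative to the sum of all genes in that library. Of 402 such entries in the table of 55364 genes, 310 were expressed enough to be tested and 197 reached 5 TPM. *Zfp42*, *Zfp64* and *Zfp352* were left out by the rule, which left 194 entries for 193 symbols, because *Zfp91* is listed under 2 identifiers. The genes were selected on their mean TPM in these libraries, so the levels below are a description and carry no test. The change upon *Yy1* knockdown was not used to select them.

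Most Zfp proteins carry arrays of C2H2 fingers, short folds held by zinc that read DNA base by base. Many also carry a KRAB domain, which recruits the corepressor TRIM28 and with it the machinery of heterochromatin, and such proteins are known to silence retrotransposons and to protect the methylation of imprinted loci in early embryos. Other Zfp proteins have no KRAB domain and act as transcription activators, as partners of chromatin complexes or on RNA and protein turnover. KRAB zinc finger genes have multiplied by local duplication and lie in clusters, which makes neighbours alike in sequence. YY1 is itself a C2H2 zinc finger factor, and it binds promoters and enhancers.

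Control KD morulae came from BDF1 x BDF1 zygotes injected with a control siRNA, and *Yy1* KD morulae from zygotes of the same cross injected with an siRNA against *Yy1*. Embryos of both groups were cultured in KSOM and collected 64 h after insemination, and each of the 3 libraries per group was made from 10 pooled morulae whose sex is unknown. The mothers were 8 to 12 weeks old and the fathers 10 to 12 weeks old. A knockdown lowers the RNA without removing the gene, and the cells of a pool cannot be told apart, so that a lower level may be fewer cells of a kind or less RNA per cell.

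Read pairs on genes, recovered from TPM and exon length, ranged from 12519597 to 24417789 in control KD and from 11793509 to 18674188 in *Yy1* KD libraries. *Yy1*, the target, was at 96.0, 100.2 and 89.8 TPM in control KD and at 8.73, 8.90 and 8.32 TPM in *Yy1* KD morulae (log2 fold change -3.32, standard error 0.09, limma adjusted p = 6.71e-05), and its groups did not overlap. The 7 morula markers, among them *Pou5f1* and *Cdx2*, were detected in all libraries and summed to between 6073 and 6598 TPM, most of it from *Dppa3*. Of the 7, *Tfap2c* was called lower (68.5% of control, log2 fold change -0.54, limma adjusted p = 0.0174), and *Krt8* stood at 72.6% of control without a call (limma adjusted p = 0.231). The part of this in the results below was not tested. Markers of cumulus cells summed to at most 1.16 TPM, with 4 of the 5 at 0 in every library, and the 2 sperm protamines to at most 1.91 TPM. The 6 markers of oocytes or arrested early embryos summed to between 35.8 and 47.4 TPM in control KD and between 36.2 and 47.7 TPM in *Yy1* KD libraries.

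All 194 entries passed the filter for testing, and none was at 0 in any library. The mean level over the 6 libraries ranged from 5.002 to 321 TPM with a median of 15.4 TPM. There were 65 entries between 5 and 10 TPM, 47 between 10 and 20 TPM, 54 between 20 and 50 TPM, 20 between 50 and 100 TPM, and 8 at 100 TPM or more. Just inside the threshold lay *Zfp362*, *Zfp386* and *Zfp750* at 5.002, 5.04 and 5.05 TPM, and just outside it *Zfp329*, *Zfp46* and *Zfp819* at 4.85, 4.73 and 4.66 TPM. In their library with the fewest read pairs, the entries had a median of 282 pairs, and the lowest, *Zfp763*, had 31.

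*Zfp296*, a factor of pluripotent cells, was the most abundant, at 307, 317 and 299.6 TPM in control KD and 334, 378 and 289 TPM in *Yy1* KD libraries. *Zfp106*, an RNA binding protein, followed at 213, 195 and 220.3 TPM in control KD and 220.5, 198 and 213 TPM in *Yy1* KD. *Zfp568*, a KRAB zinc finger protein that represses the placental promoter of *Igf2*, was at 176, 173 and 166 TPM in control KD and 159, 152 and 169 TPM in *Yy1* KD. The groups overlapped for each of these 3 genes. *Zfp706*, *Zfp985*, *Zfp217*, *Zfp820*, *Zfp207*, *Zfp936* and the entry of *Zfp91* with the higher level completed the 10 most abundant, which took 27.5% of the summed TPM of all entries. The sum over all entries was 5606 ± 75.9 TPM (SD, n = 3) in control KD and 5491 ± 78.8 TPM (SD, n = 3) in *Yy1* KD morulae, and its ranges, 5524 to 5674 and 5402 to 5548 TPM, overlapped.

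**Figure D1:**
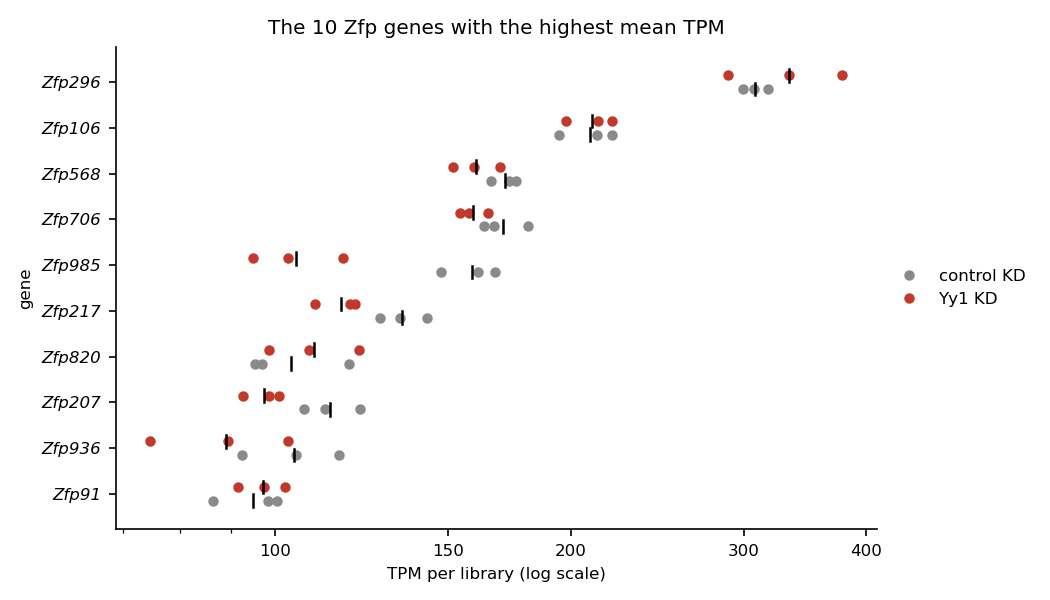
Level of the 10 most abundant Zfp genes in each of the 6 libraries, in TPM on a log axis. Grey points are control KD, red points *Yy1* KD, and short black lines the mean of 3 libraries. *Zfp985*, *Zfp217* and *Zfp207* are the genes whose red points all lie to the left of the grey ones.

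Upon *Yy1* KD, 11 of the 194 entries were called lower and 4 higher, where a call is an adjusted p under 0.05 from limma on log2(TPM + 1), Benjamini-Hochberg adjusted over all 17353 genes tested. That is 7.73% of the entries, beside 6.11% of all genes tested (4.2% lower and 1.92% higher) and 8.47% of the genes with a mean of at least 5 TPM (5.92% lower and 2.55% higher). On this scale the fold changes of weakly expressed genes come out too small, and p-values measure the spread between these pools. The median log2 fold change was -0.02 among the Zfp genes and -0.02 among all genes tested, and 99 entries were below 0 and 95 above. The 3 values of *Yy1* KD lay all below those of control KD for 41 entries and all above for 34, which is 38.7% of the entries beside 30.1% of all genes tested and 35.8% of those with a mean of at least 5 TPM. Most differences were small: 110 entries (56.7%) changed by less than 0.25 on the log2 scale, and 4 changed by 1 or more.

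The number of calls rested on every library. The 11 lower and 4 higher calls became 1 and 0 without control KD replicate 1, 1 and 0 without replicate 2, and 0 and 0 without replicate 3. They became 4 and 0 without *Yy1* KD replicate 1, 1 and 0 without replicate 2, and 3 and 0 without replicate 3. The share of all genes called fell along with them, from 6.11% to 0.772%, 1.15% and 0.432% without the control KD replicates in that order and to 2.41%, 1.28% and 2.26% without the *Yy1* KD replicates. At an unadjusted p under 0.05, limma gave 28 lower and 26 higher entries with all libraries. That is 27.8% of the entries, beside 23.8% of all genes tested. The 10669 genes tested with a mean of at least 5 TPM held 1985 lower and 1215 higher, a larger share than among the entries. With a library left out, between 19 and 25 entries were lower and between 16 and 24 higher. limma-voom on the recovered read pairs called 16 lower and 15 higher of 191 entries, beside 12.3% of all genes tested by that method. Among the 10669 genes tested by limma with a mean of at least 5 TPM, limma-voom called 1081 lower and 648 higher. This share is close to that among the entries. With quantile normalization, which raised the median of all genes to 0.02, the split was 6 lower and 5 higher.

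**Figure D2:**
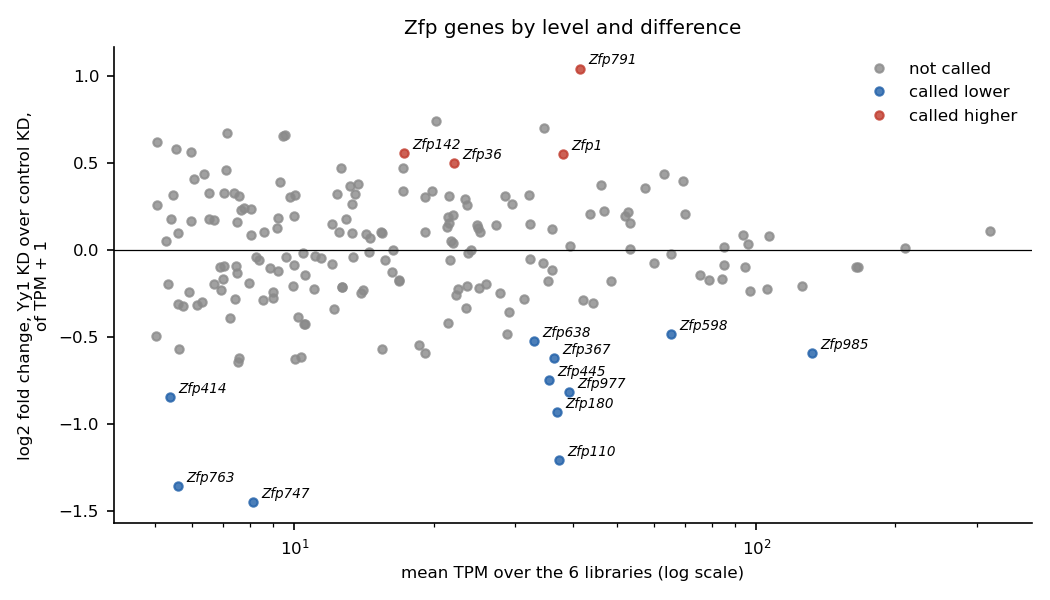
Mean level over the 6 libraries in TPM on a log axis against the log2 fold change of TPM + 1, *Yy1* KD over control KD, for the 194 Zfp entries. Blue points are the 11 called lower, red points the 4 called higher and grey points the rest, which lie on both sides of 0 at all levels.

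The smallest adjusted p of all entries was that of *Zfp445*. This gene, which protects imprinted loci together with ZFP57, was at 44.7, 40.4 and 49.3 TPM in control KD and 26.98, 24.3 and 27.5 TPM in *Yy1* KD libraries (chr9:122844529-122866006, minus strand, GRCm38). The groups did not overlap, and *Zfp445* fell to 58.6% of control (log2 fold change -0.75, standard error 0.11, limma adjusted p = 0.0162). *Zfp57* itself was not called, at 13.8, 9.52 and 13.1 TPM in control KD and 13.8, 12.9 and 14.3 TPM in *Yy1* KD (log2 fold change 0.18, limma adjusted p = 0.559). *Zfp638*, which recruits the HUSH silencing complex to unintegrated retroviral DNA, was at 41.1, 37.1 and 39.4 TPM in control KD and 26.6, 26.3 and 27.9 TPM in *Yy1* KD (chr6:83867109-83989550, plus strand). It fell to 68.7% of control without overlap (log2 fold change -0.52, standard error 0.09, limma adjusted p = 0.0242). *Zfp445* was called in 12 of 12 other settings of the fit, and also without control KD replicate 2, *Yy1* KD replicate 1 or *Yy1* KD replicate 3, and lost its call without each of the other 3 libraries (adjusted p 0.0615 to 0.0649). *Zfp638* was called in 10 of 12 other settings, and its call was lost whichever library was left out (adjusted p 0.0591 to 0.0911).

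The other repressors in the list of transposon and imprint regulators did not pass the test. *Zfp961*, which binds the primer binding site of retroviruses, was at 21.9, 28.02 and 24.5 TPM in control KD and 19.7, 17.6 and 17.3 TPM in *Yy1* KD (log2 fold change -0.42, limma adjusted p = 0.0993), with no overlap. *Zfp809*, which also binds such a site, was at 92.9, 91.0 and 83.3 TPM in control KD and 79.9, 91.3 and 67.9 TPM in *Yy1* KD (log2 fold change -0.17, limma adjusted p = 0.449), and its groups overlapped. The log2 fold change was -0.10 for *Zfp568*, 0.22 for *Zfp932*, a repressor of endogenous retroviruses, and 0.33 for *Zfp708*, which binds a family of such elements. Of *Zfp708*, every 100-base window is also found in another annotated gene, and 22.1% of the windows of *Zfp932*, so that their counts are uncertain. In the list of 7 repressors written down by role, which holds *Zfp638* but not *Zfp445*, 1 was called lower and 0 higher. That is 14.3%, beside 6.11% of all genes tested and 8.47% of those with a mean of at least 5 TPM. The median log2 fold change of the 7 was -0.10.

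Among the partners of chromatin complexes, 0 of 7 were called by limma and 0 by limma-voom, and 1 was lower at an unadjusted p under 0.05. *Zfp217*, a member of complexes with CoREST and LSD1, was at 128, 143 and 134 TPM in control KD and 120.5, 119 and 109.8 TPM in *Yy1* KD (log2 fold change -0.21, standard error 0.08, limma adjusted p = 0.161). *Zfp592*, *Zfp532* and *Zfp687*, which form complexes with ZMYND8, had log2 fold changes of -0.21, -0.19 and -0.13. For these 4 genes the *Yy1* KD values lay all below the control KD values, as for 17.2% of all genes tested. The median of the 7 was -0.19. *Zfp518a* and *Zfp518b*, partners of G9a and Polycomb complexes, differed in sign, at 0.14 and -0.26, and *Zfp644*, a partner of G9a and GLP, was at -0.05. In these 3 the groups overlapped.

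Factors of pluripotency and other transcription factors were mostly above 0 without a call. limma and limma-voom called 0 of 9, and 0 passed an unadjusted p under 0.05. The median log2 fold change was 0.16, and 7 were above 0. *Zfp322a*, a factor of the pluripotency network, was at 8.01, 9.57 and 8.94 TPM in control KD and 11.9, 11.96 and 9.88 TPM in *Yy1* KD (log2 fold change 0.31, limma adjusted p = 0.234), with no overlap. *Zfp281*, which recruits the NuRD complex, was at 21.4, 18.5 and 22.6 TPM in control KD and 27.2, 19.8 and 31.2 TPM in *Yy1* KD (log2 fold change 0.29, limma adjusted p = 0.378), and the groups overlapped. *Zfp143*, an activator bound at many promoters, was at 97.2, 98.5 and 98.3 TPM in control KD and 90.9, 94.99 and 88.2 TPM in *Yy1* KD (log2 fold change -0.10, limma adjusted p = 0.414), with no overlap. The remaining 6 ranged from -0.08 (*Zfp335*) to 0.31 (*Zfp263*).

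Genes with roles in RNA and protein metabolism held 1 lower and 1 higher call among 13 entries. That is 15.4%, beside 6.11% of all genes tested and 8.47% of those with a mean of at least 5 TPM. *Zfp598*, the ubiquitin ligase that senses collided ribosomes, was at 78.4, 74.9 and 74.9 TPM in control KD and 47.9, 57.3 and 57.6 TPM in *Yy1* KD (chr17:24669687-24682016, plus strand). It fell to 71.4% of control (log2 fold change -0.48, standard error 0.09, limma adjusted p = 0.0365). *Zfp36*, tristetraprolin, a CCCH protein that drives the decay of AU-rich mRNAs, was at 17.6, 18.1 and 18.7 TPM in control KD and 24.7, 27.2 and 26.2 TPM in *Yy1* KD (chr7:28376784-28380253, minus strand). It rose to 144% of control (log2 fold change 0.50, standard error 0.09, limma adjusted p = 0.0332). Neither gene overlapped between groups. *Zfp598* was called in 7 of 12 other settings and *Zfp36* in 8 of 11, and each lost its call whichever library was left out (adjusted p 0.0664 to 0.111 for both). *Zfp36* shares exonic sequence with *Gm44710*, and strand was ignored in counting, so their reads cannot be told apart.

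The rest of this group did not pass the test. *Zfp207*, a spindle protein, was at 112, 122 and 107 TPM in control KD and 100.7, 92.6 and 98.5 TPM in *Yy1* KD (log2 fold change -0.22, limma adjusted p = 0.149), with no overlap. *Zfp622*, a factor of ribosome maturation, was at 41.4, 45.5 and 42.5 TPM in control KD and 49.1, 52.3 and 49.7 TPM in *Yy1* KD (log2 fold change 0.22, limma adjusted p = 0.155), also without overlap. The entries of *Zfp91*, a ubiquitin ligase, were at 0.03 and -0.07, *Zfp106* at 0.01 and *Zfp451*, a SUMO ligase, at -0.0032. *Zfp830* was at -0.29, *Zfp385a* at -0.18 and *Zfp609* at 0.02, and all of these overlapped.

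The largest decreases were found in 3 KRAB zinc finger genes. *Zfp747* was at 13.6, 12.7 and 10.5 TPM in control KD and 5.79, 2.90 and 3.29 TPM in *Yy1* KD (chr7:127372537-127376050, minus strand), a fall to 32.6% of control (log2 fold change -1.45, standard error 0.24, limma adjusted p = 0.0258). *Zfp763* was at 5.87, 8.50 and 11.04 TPM in control KD and 3.12, 1.58 and 3.40 TPM in *Yy1* KD (chr17:33016863-33033402, minus strand), a fall to 31.9% (log2 fold change -1.35, standard error 0.30, limma adjusted p = 0.0483). *Zfp110*, whose product NRIF is a partner of the neurotrophin receptor p75, was at 53.7, 47.7 and 53.9 TPM in control KD and 21.6, 32.9 and 14.6 TPM in *Yy1* KD (chr7:12834761-12850577, plus strand). It fell to 44.4% (log2 fold change -1.21, standard error 0.26, limma adjusted p = 0.0477). For all 3, each *Yy1* KD library lay below each control KD library, with a wide spread in *Zfp110* among *Yy1* KD libraries. *Zfp747* was called in 10 of 12 other settings, *Zfp763* in 6 and *Zfp110* in 4. The calls of *Zfp747* and *Zfp110* held without *Yy1* KD replicate 1 and without *Yy1* KD replicate 2, respectively, and were lost without each other library (adjusted p up to 0.0887 and 0.14), and that of *Zfp763* was lost whichever library was left out (adjusted p 0.0769 to 0.143).

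*Zfp977*, with a KRAB domain, was at 57.8, 49.9 and 43.6 TPM in control KD and 34.8, 24.5 and 25.7 TPM in *Yy1* KD (chr7:42579783-42592547, minus strand; log2 fold change -0.82, standard error 0.16, limma adjusted p = 0.0395). *Zfp985*, a KRAB gene of the cluster on chromosome 4 and the most abundant called entry, was at 147, 161 and 167 TPM in control KD and 103, 94.9 and 117 TPM in *Yy1* KD (chr4:147553277-147585198, plus strand). It fell to 66.2% of control (log2 fold change -0.59, standard error 0.10, limma adjusted p = 0.0254). Each was called in 9 of 12 other settings. The call of *Zfp977* held without *Yy1* KD replicate 1 and that of *Zfp985* without *Yy1* KD replicate 3, and both were lost without each other library (adjusted p 0.0628 to 0.118).

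The remaining lower calls had no KRAB match. *Zfp180*, with 12 fingers, was at 41.3, 53.6 and 52.0 TPM in control KD and 27.4, 21.5 and 26.6 TPM in *Yy1* KD (chr7:24081924-24107713, plus strand), a fall to 51.4% (log2 fold change -0.93, standard error 0.14, limma adjusted p = 0.0203). *Zfp414*, with 2 fingers, was at 6.58, 8.36 and 6.70 TPM in control KD and 3.43, 3.53 and 3.70 TPM in *Yy1* KD (chr17:33629090-33631779, plus strand; log2 fold change -0.85, standard error 0.16, limma adjusted p = 0.0358). *Zfp367*, also with 2 fingers, was at 46.2, 43.2 and 44.0 TPM in control KD and 28.2, 25.6 and 32.1 TPM in *Yy1* KD (chr13:64133018-64153202, minus strand; log2 fold change -0.62, standard error 0.10, limma adjusted p = 0.0260). None of the 3 overlapped between groups. *Zfp414* shares exonic sequence with *Gm20507* and *Zfp367* with *Gm47513*, so part of their reads is uncertain. *Zfp180* was called in 11 of 12 other settings, and *Zfp414* and *Zfp367* in 8 of 11. *Zfp180* stayed called without control KD replicate 1 or *Yy1* KD replicate 1, *Zfp367* without *Yy1* KD replicate 3, and *Zfp414* lost its call whichever library was left out (adjusted p 0.0519 to 0.107 where a call was lost).

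Of the higher calls, the KRAB genes *Zfp791* and *Zfp1* lie on chromosome 8. *Zfp791* was at 31.7, 18.5 and 31.3 TPM in control KD and 46.6, 57.6 and 63.2 TPM in *Yy1* KD (chr8:85108553-85123095, minus strand), a rise to 205% of control (log2 fold change 1.04, standard error 0.23, limma adjusted p = 0.0466). *Zfp1* was at 30.9, 29.3 and 32.1 TPM in control KD and 44.7, 47.8 and 44.1 TPM in *Yy1* KD (chr8:111643401-111671011, plus strand; log2 fold change 0.55, standard error 0.08, limma adjusted p = 0.01998). *Zfp142*, which had the most fingers of all entries, 36, was at 14.6, 13.9 and 12.8 TPM in control KD and 22.3, 19.0 and 20.8 TPM in *Yy1* KD (chr1:74565127-74588246, minus strand; log2 fold change 0.56, standard error 0.11, limma adjusted p = 0.0403). The groups did not overlap for these genes. *Zfp791* was called in 7 of 12 other settings, *Zfp1* in 10 of 12 and *Zfp142* in 8 of 11, and all 3 calls were lost whichever library was left out (adjusted p 0.0531 to 0.135). Exonic sequence of *Zfp142* overlaps *Plcd4*. Taken singly, each of the 15 called entries had a two-sided exact permutation p of 0.1, the smallest that 3 libraries against 3 allow.

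**Figure D3:**
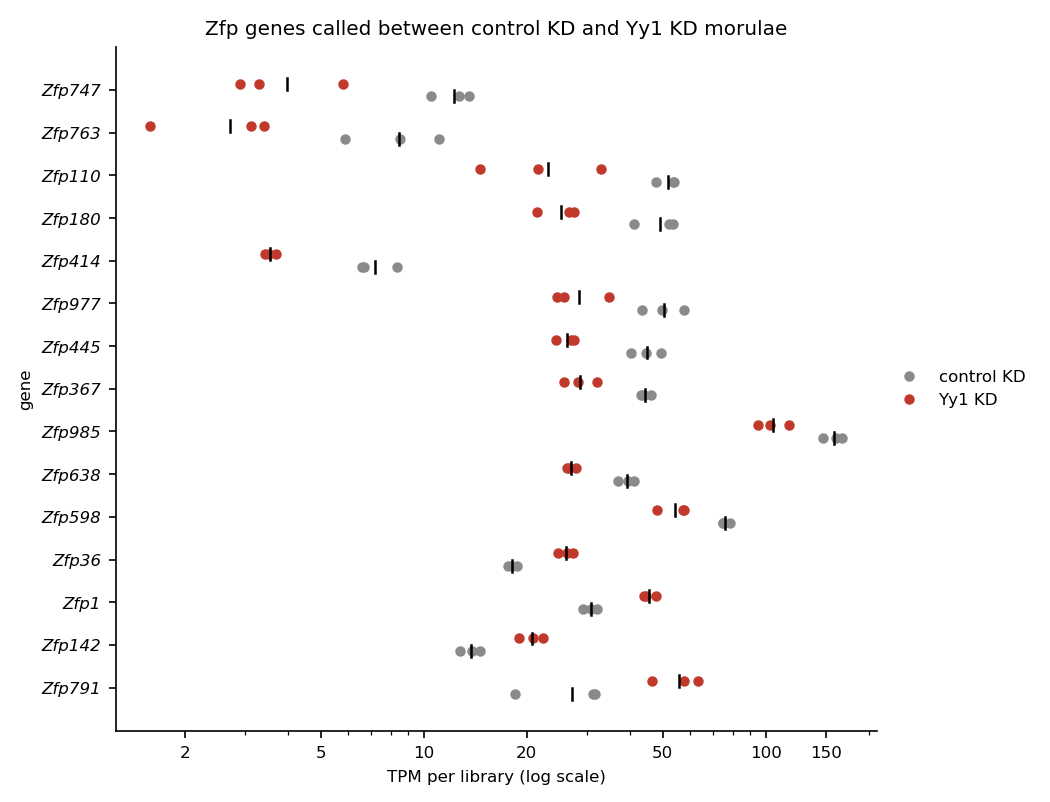
Level of the 15 called Zfp genes in each of the 6 libraries, in TPM on a log axis, ordered by log2 fold change from *Zfp747* to *Zfp791*. Grey points are control KD, red points *Yy1* KD and short black lines the mean of 3 libraries, and the colours do not overlap in any row.

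A KRAB domain and the fingers were counted in the translated coding transcripts of 190 entries. A KRAB pattern was found in 93 of them (48.9%), and 184 had at least 1 finger, with a median of 10 fingers. A narrower form of the pattern matched 61 entries, with 4 lower and 1 higher calls (8.2%) and a median log2 fold change of -0.08. The 129 without that form had 7 lower and 3 higher calls (7.75%) and a median of 0.02. The wider form was adopted with the values in view. Among the 93 with it, 6 were called lower and 2 higher (8.6%) and the median log2 fold change was -0.04. Among the 97 without it, 5 were called lower and 2 higher (7.22%) and the median was 0.01, beside -0.02 over all genes tested. Of all genes with a mean of at least 5 TPM, 8.47% were called. Of the entries with 10 or more fingers, 5 of 102 were called lower and 2 higher (6.86%). Of those with 1 to 9 fingers, 6 of 82 were called lower and 1 higher (8.54%).

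Neighbouring Zfp genes were then set side by side by position. Listed Zfp genes whose starts lie within 500 kb of the next form 18 clusters of 5 or more, which hold 87 of the 194 entries. Entries in clusters had 7 lower calls and 1 higher (9.2% called), and the 107 outside had 4 lower and 3 higher (6.54%). Of all genes with a mean of at least 5 TPM, 8.47% were called. Chromosome 7 holds 37 entries, chromosome 17 holds 26, chromosome 4 holds 22 and chromosome 13 holds 19.

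The cluster at chr17:32765496-33631779 was lower in *Yy1* KD in 8 of its 9 entries, with a median log2 fold change of -0.33. Of the 9, 6 were lower without overlap between groups, as were 17.2% of all genes tested. It holds the called *Zfp763* and *Zfp414*. *Zfp871* was at 11.1, 13.2 and 12.7 TPM in control KD and 9.31, 6.61 and 7.15 TPM in *Yy1* KD (log2 fold change -0.63, standard error 0.16, limma adjusted p = 0.0731). *Zfp472* (-0.34), *Zfp101* (-0.33) and *Zfp955b* (-0.28) also did not overlap and were not called, and *Zfp952* was the entry above 0, at 0.17. Over the 18 other settings and left-out libraries, the median of this cluster ranged from -0.40 (without control KD replicate 2) to -0.23 (without *Yy1* KD replicate 2).

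On the same chromosome, the cluster at chr17:21008903-23599487 had values on the other side of 0. Of its 13 entries, 10 were above 0, and the median was 0.32. Without overlap, 5 were higher and 1 lower, beside 12.9% higher and 17.2% lower of all genes tested. limma called 0 of them, as the lowest adjusted p was 0.0624. *Zfp52* was at 28.3, 28.5 and 21.6 TPM in control KD and 48.2, 34.4 and 47.0 TPM in *Yy1* KD (log2 fold change 0.70, standard error 0.17). *Zfp51* was at 63.9, 43.8 and 54.1 TPM in control KD and 68.8, 77.1 and 71.4 TPM in *Yy1* KD (log2 fold change 0.43, limma adjusted p = 0.123). *Zfp820*, its most abundant entry, overlapped between groups at 0.08. The median of the cluster stayed between 0.21 and 0.42 over the same settings.

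On chromosome 13 (chr13:66669928-67827002), 7 of 9 entries were above 0 with a median of 0.31, and 0 were called. Of these entries, 3 were higher without overlap, as were 12.9% of all genes tested. The median ranged from 0.22 to 0.41 over the same settings. *Zfp759* was at 6.17, 4.44 and 5.27 TPM in control KD and 9.70, 7.80 and 9.41 TPM in *Yy1* KD (log2 fold change 0.67, limma adjusted p = 0.0712). On chromosome 4 (chr4:145510759-147848366), all 18 listed Zfp genes reached 5 TPM, and 13 of them were below 0 with a median of -0.19, which ranged from -0.24 to -0.09. There *Zfp985* was called, and *Zfp979*, *Zfp984* and *Zfp992* were lower without overlap and without a call, at -0.48, -0.31 and -0.38. *Zfp987* was higher without overlap and without a call, at 0.19. Without overlap, 4 of the 18 were thus lower and 1 higher, beside 17.2% lower and 12.9% higher of all genes tested. A median of 42.4% of the 100-base windows of the chromosome 4 entries are found in another gene. Read pairs that map to several places were not counted for genes, so these levels are uncertain. *Zfp981*, at 74.4, 74.3 and 147 TPM in the *Yy1* KD libraries, had the largest SD in TPM of this cluster, 41.9 TPM.

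**Figure D4:**
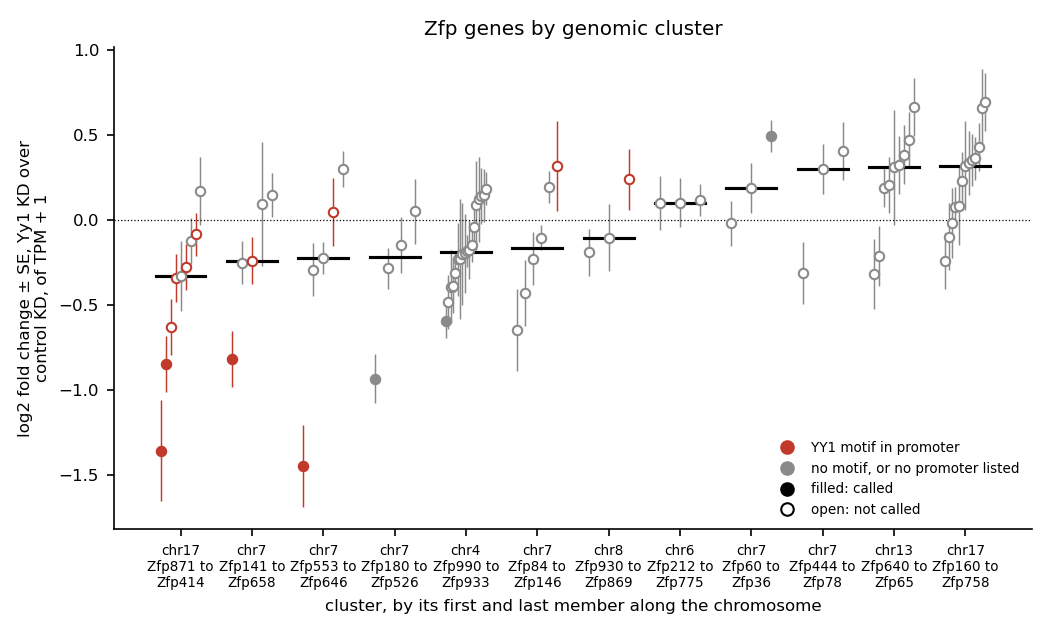
Log2 fold change of TPM + 1, *Yy1* KD over control KD, with its standard error for each Zfp gene of the 12 genomic clusters with 3 or more entries, clusters ordered by their median (black line). Filled points are called and open points are not, and red marks a YY1 motif in the RefSeq promoter. The leftmost cluster, on chromosome 17, has a median of -0.33 and 6 red points, and the rightmost, on the same chromosome, has a median of 0.32 and no red point.

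The YY1 consensus was looked up in the promoters of these genes. RefSeq promoters (GRCm38.p6, from 250 bases before to 50 after each transcript start) were at hand for 156 of the 193 symbols. The consensus GCCATNTT, whose reverse complement reads AANATGGC, was searched on both strands together with its inner core GCCAT, which every match of the consensus contains. Where a gene has several promoters, which was so for 38 of the 156, a match in any of them was counted. The sites of the 4 genes called lower that hold the consensus are shown first, in capitals within 11 bases on each side, 5′ to 3′ on the strand of the gene.
Zfp747, chr7:127376102-127376131, minus strand: tagactctgtgGCCATTTTggttgagggct
Zfp763, chr17:33033379-33033408, minus strand: ccgcccttgccGCCATGTTtgagtcctgtg
Zfp414, chr17:33629098-33629127, plus strand: tgagaagcgggAAAATGGCgccgatgtgag
Zfp977, chr7:42592537-42592566, minus strand: tgcttccgggcGCCATGTTgctggttcaat

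The capitals begin at position -70 from the RefSeq transcript start in *Zfp747*, -16 in *Zfp763*, 18 in *Zfp414* and -10 in *Zfp977*. By these starts the site of *Zfp414* lies downstream and the other 3 begin upstream. RefSeq starts can differ from the GENCODE coordinates given above, by which the first capital of *Zfp763* lies inside the gene. Sites of genes that were not called follow for comparison. They are the neighbours of *Zfp763* on chromosome 17, *Zfp936*, a neighbour of *Zfp977* on chromosome 7, the retroviral repressor *Zfp961*, and all 4 uncalled genes above 0 that hold the consensus (*Zfp668*, which has 2 sites, *Zfp518a*, *Zfp868* and *Zfp566*). The last is *Zfp791*, which was called higher, and the other uncalled genes with the consensus, all below 0, are not printed.
Zfp871, chr17:32788244-32788273, minus strand: cttcccgtccaGCCATTTTaggcgtttgtg
Zfp472, chr17:32965800-32965829, plus strand: gctcccttgccGCCATATTtgagttccggg
Zfp955a, chr17:33255112-33255141, minus strand: cggtagttgctGCCATGTTtgggtcccaga
Zfp955b, chr17:33289548-33289577, plus strand: cggtagttgctGCCATGTTtgggtcccaga
Zfp936, chr7:43177574-43177603, plus strand: tgcttccgggcGCCATGTTgctggttcaat
Zfp961, chr8:71951051-71951080, plus strand: ggccgggcgccGCCATTTTcggcgctgtcc
Zfp668, chr7:127875642-127875671, minus strand: tcctaaagaacGCCATTTTgcaggtctttg
Zfp668, chr7:127875756-127875785, minus strand: tcctagagtccGCCATGTTccgggcttttg
Zfp518a, chr19:40894469-40894498, plus strand: aaaggacggtaGCCATTTTccccgttcttc
Zfp868, chr8:69625521-69625550, minus strand: tcttttcggccGCCATGTTagctaaaggtt
Zfp566, chr7:30090599-30090628, minus strand: gcccatcgggaGCCATCTTgtctgccgcgt
Zfp791, chr8:85119728-85119757, minus strand: gagtgggcgtgGCCATGTTatgcacatgcg

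The windows of *Zfp977* and *Zfp936* are the same in all bases shown, as are those of *Zfp955a* and *Zfp955b*. The difference between such genes was not tested. The site of *Zfp936* is inside its annotated gene (chr7:43114229-43192109), at an internal transcript start. TPM covers the whole gene, so the level from that start is not known. *Zfp977* was called at -0.82, while *Zfp936* was at 116, 105 and 92.5 TPM in control KD and 89.4, 74.6 and 103 TPM in *Yy1* KD (log2 fold change -0.24, limma adjusted p = 0.362), with overlap. *Zfp955b* was at -0.28 without overlap and *Zfp955a* at -0.08 with overlap. *Zfp791* holds the same 8 letters as *Zfp977*, beginning at position -55, and was called higher. That position counts from a RefSeq transcript start inside the annotated gene (chr8:85108553-85123095, minus strand), not from the gene's outer start.

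In all, 24 of the 156 symbols (15.4%) held the consensus, beside 10.4% of 9767 genes tested with a promoter, 11.9% of those with a mean of at least 5 TPM and 6.96% of all 27025 genes with a promoter. The core was found in 46.2%, beside 43.9% of the genes tested. Of the 24, 6 are neighbours in the chromosome 17 cluster with a median log2 fold change of -0.33, and all 6 were below 0. Neighbours can be alike in sequence, so the 24 are not independent. The share and the median without this cluster were not calculated. The consensus was in 4 of the 11 genes called lower (36.4%), in 1 of the 4 called higher and in 19 of the 141 not called (13.5%). Over all genes tested with a promoter, it was in 143 of 516 called lower (27.7%), in 27 of 192 called higher (14.1%) and in 845 of 9059 not called (9.33%). For the 24 with the consensus the median log2 fold change was -0.22, and 19 were below 0. The 132 without it had a median of 0.07, and 60 were below 0. Over the same genes as a whole, the medians were -0.15 with the consensus, where 676 of 1015 were below 0, and -0.02 without it. The median of the 24 ranged from -0.24 (without *Yy1* KD replicate 1) to -0.16 (quantile normalization) over the other settings, and that of the 132 from -0.0044 (without *Yy1* KD replicate 3) to 0.13 (quantile normalization).

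The match differed between clusters. In the cluster at chr17:32765496-33631779, 6 of 9 genes held the consensus, the 2 called ones among them. It was found in 0 of 12 promoters of the cluster at chr17:21008903-23599487, in 0 of 8 on chromosome 13 and in 0 of 12 on chromosome 4. No match says only that these letters are not within the promoter window, and a match is not evidence of binding.

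**Figure D5:**
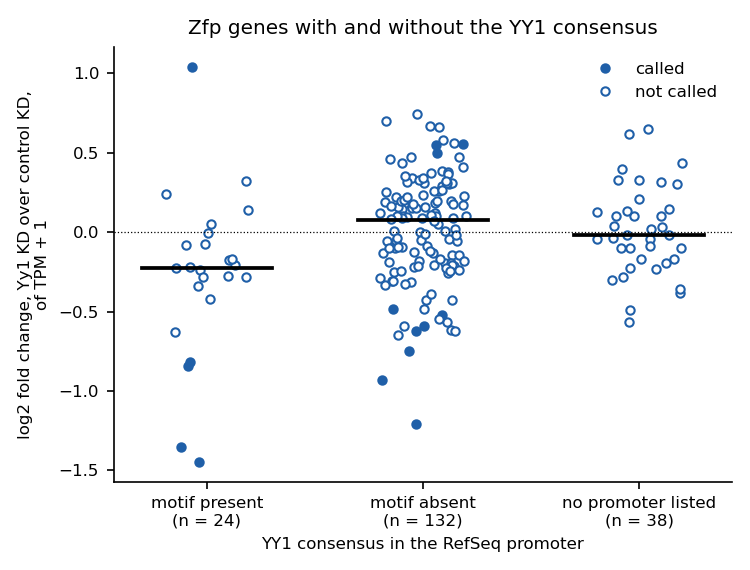
Log2 fold change of TPM + 1, *Yy1* KD over control KD, for Zfp entries with the YY1 consensus in their RefSeq promoter (n = 24), without it (n = 132) and with no promoter listed (n = 38). Filled points are called, open points are not, and black lines are medians, at -0.22, 0.07 and -0.02.

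The corepressors through which KRAB proteins act were measured in the same libraries. *Trim28*, the scaffold bound by the KRAB domain, was at 464, 476 and 448 TPM in control KD and 489, 533 and 509 TPM in *Yy1* KD (log2 fold change 0.14, limma adjusted p = 0.258), and *Setdb1*, the methyltransferase it recruits, was at 0.05 (limma adjusted p = 0.778). Of 24 genes of this machinery, 1 was called lower and 1 higher (8.33%, beside 6.11% of all genes tested), with a median of 0.04. At an unadjusted p under 0.05 in limma, 7 were lower and 3 higher, beside 2500 lower and 1623 higher of all 17353 genes tested. limma-voom called 4 lower and 1 higher, beside 1281 lower and 804 higher of the 16931 genes tested by it. *Cbx5*, which encodes HP1 alpha, fell from 74.5, 69.8 and 73.3 TPM to 59.1, 58.0 and 55.0 TPM (log2 fold change -0.33, limma adjusted p = 0.0485). *Daxx*, a chaperone of histone H3.3, rose from 34.4, 33.4 and 26.1 TPM to 61.3, 46.4 and 49.997 TPM (log2 fold change 0.73, limma adjusted p = 0.0408). *Morc3* was lower without a call (log2 fold change -0.32, limma adjusted p = 0.0521). The HUSH list of 5 genes held *Tasor*, *Mphosph8* and *Pphln1* of the complex with which ZFP638 works, and also *Setdb1* and *Morc2a*. limma called 0 of them, limma-voom called 1 lower and 1 higher, and 1 lower and 1 higher passed an unadjusted p under 0.05 in limma. *Mphosph8* stood at 66.4% of control (log2 fold change -0.57, limma adjusted p = 0.0502) and *Morc2a* at 124% (log2 fold change 0.31, limma adjusted p = 0.0891), both without overlap.

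Spread between pools differed among the Zfp genes. The median coefficient of variation was 10.5% in control KD and 12.6% in *Yy1* KD, beside 11.3% and 12.002% for all genes of at least 5 TPM. *Zfp970* varied most, at 37.8, 9.48 and 7.99 TPM in control KD and 11, 2.79 and 23.7 TPM in *Yy1* KD, and 19.4% of its 100-base windows are shared with another gene. Among entries that did not pass the test, the largest difference was that of *Zfp558*, at 13.99, 18.1 and 12.1 TPM in control KD and 34.6, 22.5 and 19.985 TPM in *Yy1* KD (log2 fold change 0.74, limma adjusted p = 0.115). *Zfp981*, *Zfp558*, *Zfp970* and the cluster genes named above were picked with their values in view.

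The 113 Zfp genes that were tested but had a mean below 5 TPM held 4 lower and 1 higher calls, with a median log2 fold change of 0.07. That is 4.42% called, beside 6.11% of all genes tested. Other families of zinc finger genes gave 1 lower and 0 higher calls among 36 *Zbtb* genes (2.78%) and 1 and 0 among 18 *Zscan* and *Zkscan* genes (5.56%). Among 14 *Zc3h* genes 0 and 0 were called, 1 was higher at an unadjusted p under 0.05 in limma, and limma-voom called 0. Their medians were -0.05, 0.06 and 0.04.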

How the data were processed

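RNA-seq libraries were made from 3 pools of control KD and 3 of *Yy1* KD morulae with the SMART-Seq Stranded kit. The authors trimmed reads with Trim Galore (version 0.6.7), aligned them to mm10 with HISAT2 (version 2.2.1), removed ribosomal reads with bedtools, counted pairs per gene with featureCounts (version 2.0.1, strand ignored, pairs on several genes divided) and deposited TPM values per gene and library. Uniquely placed pairs were counted for genes, so duplicated Zfp genes are uncertain. No column of values was left unused (0).

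Genes reaching 1 TPM in 3 or more of the 6 libraries were fitted with limma (version 3.58.1, R 4.3.3) on log2(TPM + 1) with a variance trend and no block, and two-sided p-values were Benjamini-Hochberg adjusted. The labels do not say whether replicate numbers pair the samples. Deviations from the group means correlated at -0.004, 0.032 and 0.075 between libraries of equal number. Between libraries of unequal number the correlations ranged from -0.071 to 0.041. Figures and tables were made with Python 3.11.15, pandas 2.3.3, scipy 1.17.1 and matplotlib 3.10.9.

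Coordinates, overlaps, exon lengths and translated coding sequence came from GENCODE vM21 on GRCm38, which matched 55104 of 55364 identifiers. The KRAB pattern is a run of residues typical of the KRAB A box, widened after values had been seen, because the narrower form matched 61 entries. It matched 42.9% of 645 genes with 3 or more fingers and 0.142% of 21882 others. Promoters came from RefSeq. Clusters were also defined after values had been seen.

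The members, gene lists and role groups were chosen with earlier results of these data known. Genes named are *Yy1*, every called member, the 10 most abundant and those next to the 5 TPM threshold. Members with a listed role are named too, though not every one, and called corepressors with *Trim28*, *Setdb1*, *Morc3* and *Daxx*. The genes of the HUSH list are named as well. Any other gene is marked as picked with its value in view.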

Additional observations from a re-analysis of the deposited data

How the results depend on the processing

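Against 11 lower and 4 higher calls, no filter on low values gave 3 and 1, quantile normalization 6 and 5, no variance trend 4 and 0 and genes without exonic overlap 8 and 2 (of 136 entries), and limma-voom on recovered read pairs gave 16 and 15. The share of all genes called was 6.11% in the main comparison and 0.968%, 5.39%, 2.96%, 5.76% and 12.3% in these settings. Where 0 were called higher, between 16 and 26 passed an unadjusted p under 0.05. With a library left out, between 0 and 4 lower and 0 higher calls were made. With the replicate number as a block, 2 lower and 0 higher calls were made, 1.65% of all genes being called. A threshold of 1 TPM for the members gave 15 lower and 5 higher calls among 304 entries, 10 TPM gave 8 and 4 among 129, and 20 TPM gave 8 and 3 among 82. The median log2 fold change of the members ranged from -0.03 to 0.06 and that of *Yy1* from -3.45 to -3.23, called throughout. The share of lower among all called genes was 68.6%, and from 58.5% (quantile normalization) and 60.5% (correction for GC content and length) to 77.8% (no filter), 76.0% (replicate block) and 80.1% (without *Yy1* KD replicate 3). The cause of these changes was not tested. No called member changed direction in any setting. Depth limits the genes of low level, such as *Zfp763* with 31 read pairs in a library.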
